A study of Mus musculus with 12 samples.

Results

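The 32 genes described here mark the cells of brain blood vessels and of the meninges: 17 mark endothelium, 7 mark mural cells and 8 mark vascular and meningeal fibroblasts. They were taken from a list of names written with earlier results of these data known, and found, 32 of 32, in a count table of 55421 genes. PolyA RNA was sequenced from 2 parts of the prefrontal cortex, prelimbic (PL) and infralimbic (IL), of male C57BL/6 mice labelled WT, aged 10 to 12 weeks. Mice of every group had undergone fear conditioning, 3 pairings of a tone with a 0.7 mA foot shock, so no group was untrained. They then received an intraperitoneal injection of dexmedetomidine (Dex, 40 µg per kg), a sedative agonist of alpha2 adrenergic receptors, or an equal volume of normal saline, and tissue was taken 2 h after training. Each region and treatment has 3 libraries, numbered 1 to 3, which gives 4 groups: PL Dex and PL saline, IL Dex and IL saline. The extraction protocol names PL tissue for every sample whereas 6 titles name IL, and the titles were followed. The labels also give each library a batch number that equals its sample number, so batch and sample number cannot be told apart. Nothing in the labels says whether the libraries of 1 group are from different animals, and the p-values below therefore reflect the spread among the sequenced samples, which may be technical.

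Brain endothelial cells line the capillaries and are joined by tight junctions into the blood-brain barrier, which they keep with transporters and efflux pumps. Pericytes and smooth muscle cells, together called mural cells, wrap these vessels and set their tone and stability, and platelet-derived growth factor signalling recruits them to the endothelium. Fibroblasts lie around larger vessels and in the meninges, where they lay down collagens and form the arachnoid and pial layers that cover the cortex. In homogenised tissue, fewer cells of a type and less RNA per cell cannot be told apart.

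Libraries held 5419187 to 16530596 counts, and 20015 genes, 30 of the members among them, passed the filter on low counts. The smooth muscle gene Tagln, at 0 to 13 counts per library, and the growth factor gene Igf2, at 1 to 11, did not pass and were not tested. Neuronal markers summed to 4252 to 7138 CPM (read counts scaled to a common library size) per library, whereas markers of the ependyma that lines the ventricles summed to 5.62 to 7.75 CPM in the PL libraries and 14.2 to 33.8 CPM in the IL libraries. How far GC-rich genes read high or low differed between libraries: the slope of log2 level on GC content ran from -0.31 to -0.07 per 10 percentage points in PL saline, from -0.07 to 0.12 in PL Dex and from -0.01 to 0.19 in IL. For the members, each comparison of PL saline below is therefore also given with a correction for GC content where that ends a call. Calls of further genes are given without it.

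All 3 cell classes were detected in every library. Per kilobase of exon, the fibroblast and arachnoid gene Ptgds, which encodes prostaglandin D synthase, had the highest mean level of the 32 genes at 80.9 CPM per kb, with a range of 38.5 to 152 over the 12 libraries. Ptgds is also made by oligodendrocytes. The pericyte gene Rgs5, an inhibitor of G protein signalling, came next at 22.8 CPM per kb (18.2 to 30.0). The highest endothelial members were Itm2a, a membrane protein gene, at 13.7, Ly6c1, a surface antigen gene, at 13.3, and the organic anion transporter gene Slco1a4 at 7.90 CPM per kb. The lowest tested members were the fibrillar collagen gene Col3a1 at 0.39 and the proteoglycan gene Lum at 0.53 CPM per kb.

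The summed levels of the endothelial and mural classes were steady across libraries and that of the fibroblast class was not. The 17 endothelial members summed to 301.3, 315.5 and 304.1 CPM in PL saline, 280.7, 294.6 and 354.8 in PL Dex, 276.4, 283.6 and 279.0 in IL saline and 278.8, 272.2 and 285.7 in IL Dex. With library totals in place of TMM scaling, PL saline was at 288.9, 304.5 and 289.3 CPM and IL saline at 289.8, 297.0 and 283.6. The endothelial sums of PL saline and IL saline then overlapped. The 7 mural members summed to 187.5, 208.8 and 176.2 CPM in PL saline, 186.7, 166.2 and 216.1 in PL Dex, 184.6, 175.9 and 172.8 in IL saline and 184.4, 175.3 and 183.7 in IL Dex. In both classes the highest library, PL Dex 3 each time, was 1.30 times the lowest, and the coefficient of variation (CV) over the 12 libraries was 7.89% and 7.83%. Rgs5 alone held 123.1, 113.1 and 115.7 CPM of the mural sums in PL saline, so the mural sum mostly follows 1 gene. The 8 fibroblast members summed to 116.2, 195.9 and 129.3 CPM in PL saline, 263.9, 182.3 and 243.6 in PL Dex, 106.0, 216.3 and 122.3 in IL saline and 94.96, 314.1 and 131.7 in IL Dex. The highest was 3.31 times the lowest, with a CV of 40.3%, and both extremes, libraries 2 and 1, lay within IL Dex. Without Ptgds the CV of the fibroblast sum was 28.3% and the range 2.41-fold, from 26.3 CPM in PL saline 3 to 63.5 in IL Dex 2.

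**Figure D1:**
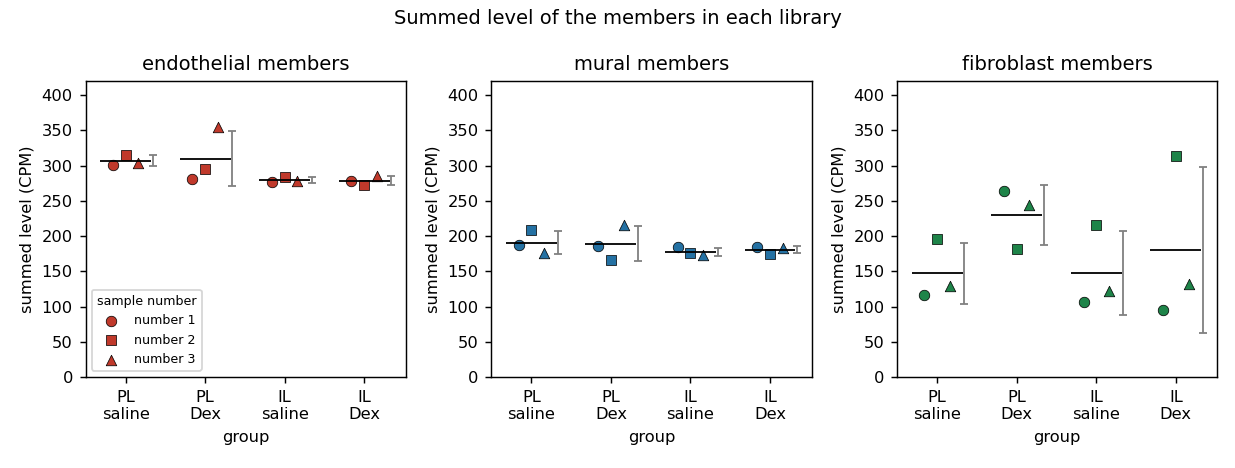
Summed CPM of the endothelial, mural and fibroblast members in each of the 12 libraries (points, shaped by sample number), with the group mean (line) and SD of 3 libraries (grey bar), on a linear axis from 0. The endothelial and mural sums keep within 1.30-fold over all libraries, whereas the fibroblast sum of IL Dex library 2, at 314.1 CPM, stands above the other 11.

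Among single genes, the steadiest were the pericyte potassium channel regulator Abcc9, with a CV of 6.35% over the 12 libraries, and the endothelial adhesion molecule Pecam1, with 6.85%. Junction and receptor genes of the endothelium varied moderately: Cldn5, the main claudin of barrier tight junctions, had a CV of 22.3%, the vascular growth factor receptor genes Flt1 and Kdr 12.8% and 15.5%, and the angiopoietin receptor gene Tek 15.7%. The most variable tested members were the GABA and taurine transporter gene Slc6a13 at 49.1%, the proteoglycan gene Dcn at 46.3%, Ptgds and Col3a1 at 45.1% each, the smooth muscle gene Myh11 at 44.2%, Lum at 40.7% and the smooth muscle gene Acta2 at 40.0%. Without PL saline library 2, an alternative chosen after seeing the data, the CV was 26.9% for Myh11 and 25.1% for Acta2, and 46.0% for Dcn.

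**Figure D2:**
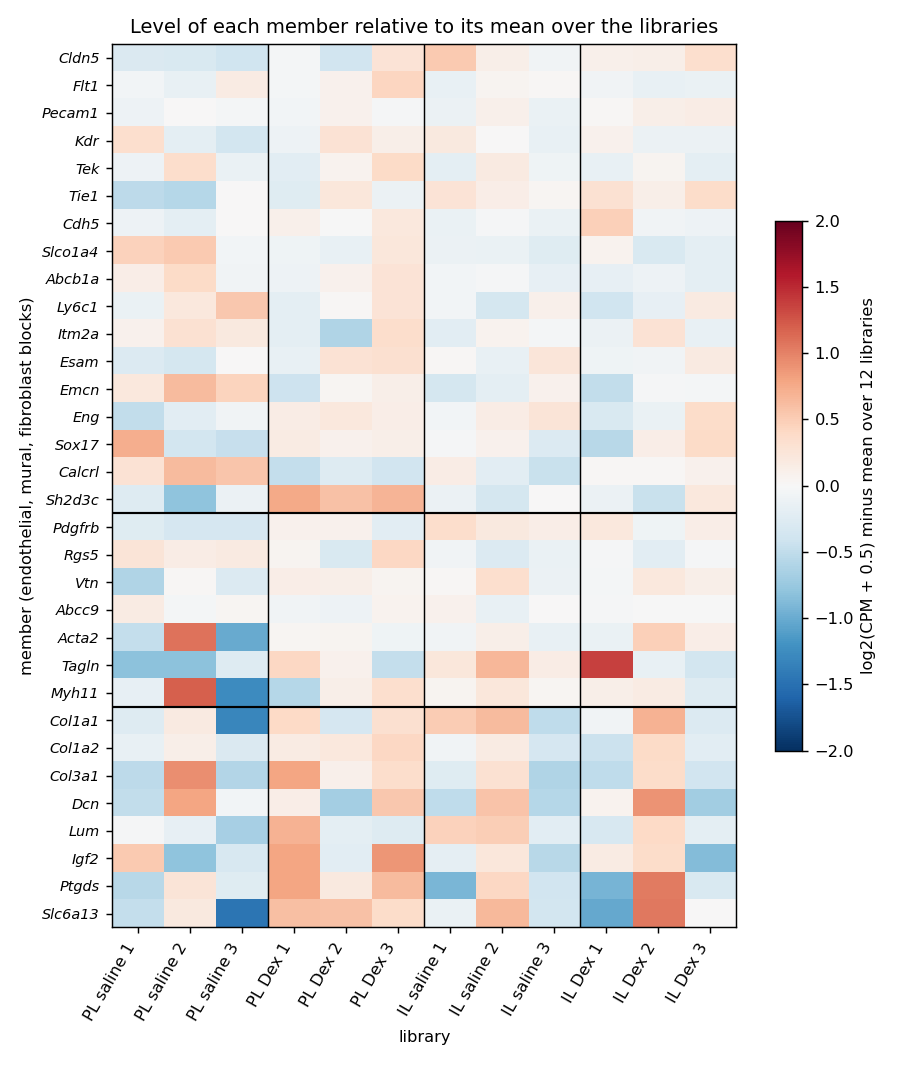
Level of each of the 32 members in the 12 libraries, as log2 of CPM plus 0.5 minus the gene's own mean over the libraries, with genes in rows by class and libraries in columns by group. Within each IL group the fibroblast rows read highest at library 2, and Acta2 and Myh11 stand out in PL saline library 2.

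The contractile genes stood apart in 1 library. Acta2, smooth muscle actin, was at 5.62, 17.7 and 3.74 CPM in PL saline, 8.30, 8.42 and 7.59 in PL Dex, 7.65, 8.72 and 7.20 in IL saline and 7.30, 11.4 and 8.85 in IL Dex. Myh11, smooth muscle myosin heavy chain, was at 7.59, 20.3 and 3.26 CPM in PL saline, 5.58, 9.29 and 10.8 in PL Dex, 8.90, 10.0 and 8.75 in IL saline and 9.26, 9.60 and 7.01 in IL Dex. PL saline library 2 was the highest of the 12 for both genes and PL saline library 3 the lowest, so PL saline spans the whole range. The blood markers summed to 107.2 CPM in PL saline library 2 and to 51.8 and 55.4 CPM in the other PL saline libraries, and the part of vessel content in the contractile values was not tested. Tagln, another contractile gene, had 0 counts in PL saline libraries 1 and 2 and overlaps Pcsk7 on the other strand, and it is listed here by its counts only.

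The fibroblast members followed the sample number in IL. In both IL saline and IL Dex, library 2 was the highest of 3 for 8 of 8 fibroblast members, against 14.4% of all tested genes, 3 of 17 endothelial and 3 of 7 mural members. The 8 include Igf2 and the 7 include Tagln, which were not tested. Igf2 was at 5, 11 and 4 counts in IL saline and at 4, 6 and 1 in IL Dex. Ptgds was at 64.5, 161.7 and 92.8 CPM in IL saline and at 63.4, 250.6 and 98.4 in IL Dex. Slc6a13 was at 4.41, 7.89 and 3.63 CPM in IL saline and at 2.14, 10.7 and 4.89 in IL Dex. Dcn was at 2.70, 6.23 and 2.56 CPM in IL saline and at 4.28, 7.95 and 2.31 in IL Dex. For each of these genes both libraries numbered 2 lay above the other 4 IL libraries, so the saline and Dex groups overlapped.

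The collagen and matrix genes had the same highest library in IL. Col1a1, the other chain of type I collagen, was at 11.9, 13.1 and 5.65 CPM in IL saline and 7.84, 13.7 and 6.73 in IL Dex. Col1a2 was at 17.4, 20.3 and 14.3 CPM in IL saline and 13.4, 23.9 and 15.7 in IL Dex. Library 2 exceeded the next library of its group by less in IL saline than in IL Dex for both chains. Col3a1 was at 2.88, 4.43 and 2.14 CPM in IL saline and 2.32, 4.65 and 2.58 in IL Dex. Lum was at 1.89, 1.94 and 1.01 CPM in IL saline and 0.891, 1.80 and 1.01 in IL Dex, so its libraries 1 and 2 of IL saline were nearly level. In PL saline Col1a1 was at 6.83, 9.37 and 3.02 CPM, Col3a1 at 2.28, 7.14 and 2.17 and Lum at 1.21, 1.05 and 0.604. In PL Dex Col1a1 was at 11.0, 6.39 and 10.4 CPM, Col3a1 at 6.39, 3.77 and 4.61 and Lum at 2.31, 1.02 and 0.949, with library 1 the highest of the 3 for each gene.

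A test of the batch number within IL, chosen after seeing the data, compared the 3 numbers over both treatments with edgeR's quasi-likelihood test (2 residual degrees of freedom). It called 13.6% of 20226 genes, 4 of 7 tested fibroblast members, 1 of 17 endothelial members and 0 of 6 mural members, where 2 mural members had an unadjusted p under 0.05. Each p is for any difference among the 3 numbers, and number 2 was not tested on its own. The 4 fibroblast members were higher in number 2 than the mean of numbers 1 and 3: Dcn by 1.28 on the log2 scale (adjusted p 0.000113), Slc6a13 by 1.23 (0.000115), Col1a1 by 0.75 (4.8e-05) and Col1a2 by 0.51 (0.00729). Ptgds, with the largest difference among members at 1.35, had an adjusted p of 0.0644 and was not called. A fit without 1 of the IL libraries keeps only 1 library of that number, so calls gained or lost in such fits say little. Col3a1, at 0.86, and Lum, at 0.61, were not called (adjusted p 0.0632 and 0.427). The endothelial gene called was Ly6c1 (adjusted p 0.0425). It was at 21.0, 17.0 and 23.6 CPM in IL saline and 16.6, 19.5 and 24.8 in IL Dex, with library 3 the highest in both. Its number 2 lay 0.26 below the mean of numbers 1 and 3. Ly6c1 was not called without IL saline library 2 or 3 or without IL Dex library 1 or 3, nor under library totals.

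The promoters of Col1a2 and Slc6a13 are shown because these genes, with unlike products, both differed by sample number in IL. They are the 250 bases before the RefSeq start on GRCm38.p6, read on the gene's strand, and capitals mark CCAAT or its reverse ATTGG, a common promoter element. The Col1a2 window lies at chr6:4505368-4505617 on the plus strand and that of Slc6a13, the first of 3 listed starts, at chr6:121300038-121300287 on the plus strand.
Col1a2: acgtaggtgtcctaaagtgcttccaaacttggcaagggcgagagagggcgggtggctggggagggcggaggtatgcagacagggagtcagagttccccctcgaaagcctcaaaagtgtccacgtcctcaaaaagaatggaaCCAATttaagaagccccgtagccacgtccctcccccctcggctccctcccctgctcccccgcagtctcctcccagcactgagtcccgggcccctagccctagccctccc
Slc6a13: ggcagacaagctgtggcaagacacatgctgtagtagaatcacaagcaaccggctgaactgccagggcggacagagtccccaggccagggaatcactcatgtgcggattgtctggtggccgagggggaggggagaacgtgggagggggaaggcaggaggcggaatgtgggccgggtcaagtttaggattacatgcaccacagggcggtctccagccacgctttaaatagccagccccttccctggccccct
CCAAT was searched on both strands: the Col1a2 window holds 1 match and the Slc6a13 window 0. Of 32851 promoter windows of this length, 33.8% hold the element, as do 8 of the 28 windows of the 22 members with an entry. Col1a2 encodes an alpha chain of type I collagen (chr6, 4504814 to 4541544) and Slc6a13 a transporter of meningeal cells (chr6, 121300227 to 121337733). At 62% and 60.8% GC both windows lie above the median window at 52.4%.

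Further meningeal genes were also higher in number 2 of IL. Of 28 further fibroblast and meningeal genes, library 2 was the highest of 3 in both IL groups for 20, against 14.4% of all tested genes. Of the 28, 25 passed the filter on low counts. The batch test called 17 of 25, 15 of them higher in number 2, with a median difference of 0.69. Slc13a4, a sulfate transporter gene, was higher by 2.05, and it was at 3.15, 9.27 and 2.68 CPM in IL saline and at 2.14, 12.6 and 2.03 in IL Dex. Aldh1a2, which makes retinoic acid, was higher by 1.96, the exporter gene Slc47a1 by 1.85 and the organic anion transporter gene Slc22a6 by 1.74. Without IL Dex library 2 the count called was 6 of 26, and without other IL libraries it was 10 to 16.

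Other lists also held genes that differed by sample number in IL. The test called 3 of 6 choroid plexus genes, 3 of 6 ependymal genes and 2 of 5 blood genes, all higher in number 2, and 5 of 10 oligodendrocyte genes, all lower. It also called 7 of 10 neuronal genes, 3 higher and 4 lower, and 5 of 10 astrocyte genes, 4 higher and 1 lower, so these lists too had a larger share called than the 13.6% of all genes. The choroid marker Ttr was at 0, 1.80 and 2.32 CPM in IL saline and at 0, 2.25 and 1.66 in IL Dex, so it was at 0 counts in both libraries numbered 1 and similar in numbers 2 and 3. Blood markers summed to 78.1, 82.1 and 78.7 CPM in IL saline and to 89.3, 150.7 and 99.9 in IL Dex. The part of dissected meninges, ventricle or blood in the fibroblast values was not tested.

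**Figure D3:**
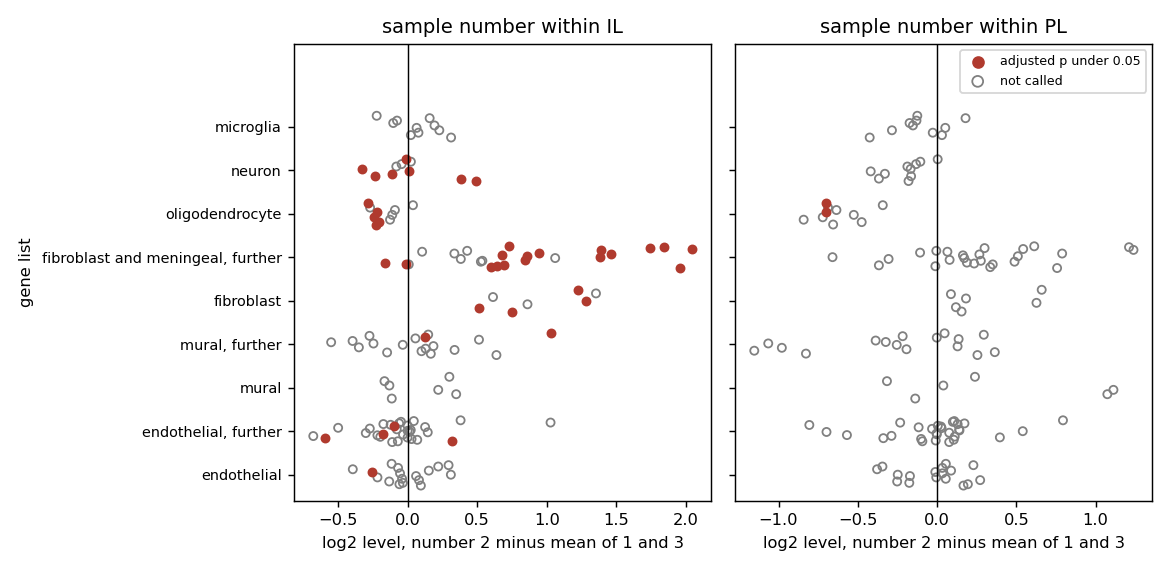
Log2 difference of sample number 2 from the mean of numbers 1 and 3, for each gene of the listed cell types, within IL and within PL. Filled points passed an adjusted p of 0.05 in the test of any difference among the numbers, not of number 2 alone. In IL the fibroblast lists lie mostly to the right of 0 with medians of 0.86 and 0.69, and in PL no fibroblast gene is filled.

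Within PL no member differed by sample number past the threshold. Library 2 was the highest of 3 for 6 of 8 fibroblast members in PL saline and for 0 of 8 in PL Dex. The batch test within PL called 37 of 17946 genes (0.206%) and 0 of 29 members with edgeR, 2 of which, Acta2 and Ly6c1, had an unadjusted p under 0.05. The fibroblast sums in PL Dex, at 263.9, 182.3 and 243.6 CPM, were lowest in number 2. The oligodendrocyte markers of the same libraries summed to 5148, 1929 and 3256 CPM, lowest in number 2 as well, and their part in the fibroblast values was not tested. In the PL batch test 10 of 10 oligodendrocyte genes had an unadjusted p under 0.05 and 2 were called, with a median of -0.67. Whether the batch effect differs between PL and IL was not tested.

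Dex against saline in PL asked whether the drug altered these genes 2 h after training. With edgeR 0 of 30 members were called, where 0.02% of all genes were, and 6 members had an unadjusted p under 0.05, where 13.9% of all genes did. DESeq2 called 2 members, the adaptor gene Sh2d3c and the receptor gene Calcrl, and 140 of the 12517 genes it gave an adjusted p (1.12%). The PL Dex and PL saline libraries did not overlap for 8 members, 6 higher and 2 lower. Of all tested genes, 14.4% had groups that did not overlap, 7.57% higher and 6.82% lower. The median log2 difference was 0.09 over the 17 endothelial members, -0.10 over 6 mural members and 0.54 over 7 fibroblast members, where the median of all tested genes was -0.0025. With GC correction the mural median was 0.03 and the fibroblast median 0.27.

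Sh2d3c encodes an adaptor protein with an SH2 domain, expressed in endothelium, and also in lymphoid and neural cells. It was at 11.2, 7.50 and 12.4 CPM in PL saline (10.4 ± 2.58, SD, n = 3) and at 23.1, 20.5 and 22.0 CPM in PL Dex (21.8 ± 1.34, SD, n = 3). It was at 12.5, 10.4 and 13.6 CPM in IL saline (12.2 ± 1.59) and at 12.5, 9.75 and 15.8 CPM in IL Dex (12.7 ± 3.01). All 3 PL Dex libraries lay above the other 9. The log2 difference in PL was 1.08 (SE 0.204, 95% interval 0.65 to 1.50), with an adjusted p of 0.0774 in edgeR. With the batch number as a block the adjusted p was 0.0438, without PL Dex library 3 it was 0.0103, with no low-count filter 0.000246 and in DESeq2 0.00163, while with GC correction the difference was 0.85 and the adjusted p 0.456.

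Calcrl encodes the receptor that, with its partner proteins, binds adrenomedullin and calcitonin gene-related peptide, dilators of vessels. It was at 9.11, 11.7 and 11.0 CPM in PL saline (10.6 ± 1.34, SD, n = 3) and at 5.17, 6.10 and 5.56 CPM in PL Dex (5.61 ± 0.465, SD, n = 3). It was at 8.19, 6.30 and 5.30 CPM in IL saline (6.59 ± 1.47) and at 7.48, 7.50 and 7.84 CPM in IL Dex (7.61 ± 0.201). The 3 PL saline libraries lay above the other 9. The log2 difference in PL was -0.92 (SE 0.22, 95% interval -1.38 to -0.47), with an adjusted p of 0.159 in edgeR and 0.0359 in DESeq2. Without PL Dex library 3 it was past the threshold in edgeR (0.0328), and with GC correction it was -0.62 with an adjusted p of 0.822.

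The promoters of Sh2d3c and Calcrl are shown because the values of these endothelial genes moved in opposite directions in PL. Each is the 250 bases before the RefSeq start on GRCm38.p6, on the gene's strand, and capitals mark GGAA or its reverse TTCC, the core bound by ETS factors. Sh2d3c lies at chr2 from 32721055 to 32755512 on the plus strand, with its window at chr2:32727439-32727688, and Calcrl at chr2 from 84330626 to 84425411 on the minus strand, with its window at chr2:84425267-84425516.
Sh2d3c: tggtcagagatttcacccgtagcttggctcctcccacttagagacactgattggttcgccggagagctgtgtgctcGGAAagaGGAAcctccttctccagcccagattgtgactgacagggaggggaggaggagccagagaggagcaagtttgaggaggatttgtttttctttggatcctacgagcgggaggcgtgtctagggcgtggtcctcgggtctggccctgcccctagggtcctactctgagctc
Calcrl: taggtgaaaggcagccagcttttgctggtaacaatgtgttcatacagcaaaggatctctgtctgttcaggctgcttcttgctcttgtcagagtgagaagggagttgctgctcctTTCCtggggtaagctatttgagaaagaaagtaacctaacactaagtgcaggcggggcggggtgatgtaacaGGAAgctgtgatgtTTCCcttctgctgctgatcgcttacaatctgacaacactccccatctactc
The Sh2d3c window holds 2 matches and the Calcrl window 3, counting both strands. GGAA is a short and common string, present in 93.4% of all 32851 windows and in 27 of the 28 members' windows. The windows differ in composition, at 57.6% and 48.4% GC, and so do the transcripts, at 58.0% GC for Sh2d3c and 37.8% for Calcrl. The span of the Sh2d3c gene overlaps that of 6330409D20Rik on the other strand, which had 107 counts over the 12 libraries. Whether their exons overlap was not tested, and without strand, reads from a shared stretch cannot be told apart.

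**Figure D4:**
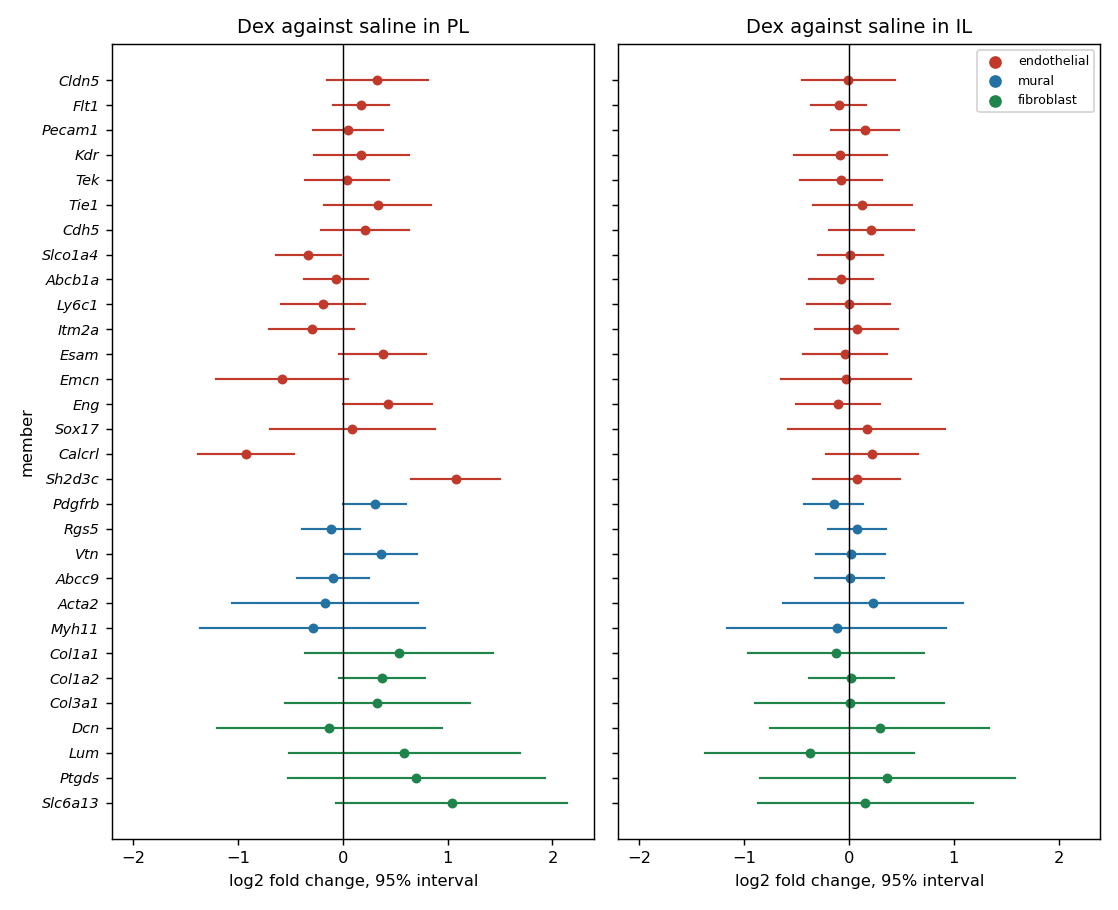
Log2 difference of Dex from saline for each of the 30 tested members in PL and in IL, with 95% intervals from edgeR. In PL Sh2d3c, at 1.08, and Calcrl, at -0.92, have intervals that lie farthest from 0; in IL every member's interval includes 0.

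The remaining endothelial members showed smaller differences in PL. Eng, a co-receptor of the TGF-beta family, was at 7.74, 9.49 and 10.5 CPM in PL saline and 12.4, 12.9 and 12.2 in PL Dex, a log2 difference of 0.43 (adjusted p 0.353). Emcn, a sialomucin of veins and capillaries, was at 3.80, 5.27 and 4.59 CPM in PL saline and 2.31, 3.34 and 3.52 in PL Dex, a difference of -0.58 (adjusted p 0.395). Neither pair of groups overlapped, yet neither gene was called. The span of Eng overlaps that of Fpgs on the other strand, and whether their exons overlap was not tested, so its reads could hold some of that gene. The other 13 endothelial members ran from -0.33 for Slco1a4 to 0.38 for Esam, an adhesion molecule of endothelial junctions. Among them Abcb1a, the P-glycoprotein efflux pump, was at -0.07, the receptor gene Tie1 and Cldn5 were at 0.33 each, and Sox17, a transcription factor of arterial endothelium, was at 0.09. Itm2a was at 25.1, 29.0 and 26.9 CPM in PL saline, 20.5, 15.2 and 30.1 in PL Dex, 20.3, 24.8 and 22.7 in IL saline and 21.7, 29.0 and 21.1 in IL Dex. Dex and saline overlapped in each region, while all 3 PL saline libraries lay above all 3 IL saline libraries.

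Of the mural members, Vtn, the vitronectin gene of pericytes, was at 17.0, 26.7 and 21.5 CPM in PL saline and 28.7, 28.4 and 27.2 in PL Dex, a log2 difference of 0.37 (edgeR adjusted p 0.329). Pdgfrb, the receptor for platelet-derived growth factor B, was at 19.9, 18.7 and 18.7 CPM in PL saline and 25.3, 25.1 and 20.5 in PL Dex, a difference of 0.31 (adjusted p 0.349). Both genes had every PL Dex library above every PL saline library. With GC correction the differences were 0.17 and 0.12. In IL Dex, Vtn was at 25.5, 30.5 and 28.5 CPM, against 26.5, 33.0 and 24.1 in IL saline, and Pdgfrb was at 27.4, 22.2 and 26.1 CPM. The other 4 tested mural members ran from -0.29 for Myh11 to -0.09 for Abcc9. Rgs5 was at 106.1, 82.7 and 136.5 CPM in PL Dex and at 100.7, 88.7 and 100.5 in IL Dex, and the spread of its PL Dex libraries covers the other 3 groups.

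Of the fibroblast members, 6 of 7 had a positive difference in PL, and none was called. Slc6a13 was at 3.34, 5.62 and 1.45 CPM in PL saline and 7.62, 7.55 and 6.37 in PL Dex, a log2 difference of 1.04 (SE 0.514, edgeR adjusted p 0.383). It was 1.62 without PL saline library 2 and 0.66 without PL saline library 3. Col1a2 was at 16.4, 19.7 and 14.9 CPM in PL saline and 20.4, 21.2 and 24.4 in PL Dex, a difference of 0.37 (adjusted p 0.403). Ptgds was at 82.3, 145.6 and 103.0 CPM in PL saline and 210.3, 139.6 and 189.2 in PL Dex, where the groups overlapped (0.70, adjusted p 0.578). Col1a1 was at 0.54, Lum at 0.59, Col3a1 at 0.33 and Dcn at -0.13. Among 25 further fibroblast and meningeal genes, 20 had a positive difference, with a median of 0.28, and 0 were called by edgeR, 3 having an unadjusted p under 0.05.

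In PL the sign of a member's difference went with its GC content. Of the 17 members with at least 50% GC, 16 had a positive difference, with a median of 0.33, whereas 3 of the 13 members under 50% did, with a median of -0.13. With GC correction these became 15 of 17 (median 0.17) and 6 of 13 (median -0.03). Over 19590 genes the Spearman correlation of GC content with the log2 difference was 0.540 in PL and -0.0353 in IL, a description across genes that share libraries. In IL 10 of the 17 and 7 of the 13 members were positive.

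**Figure D5:**
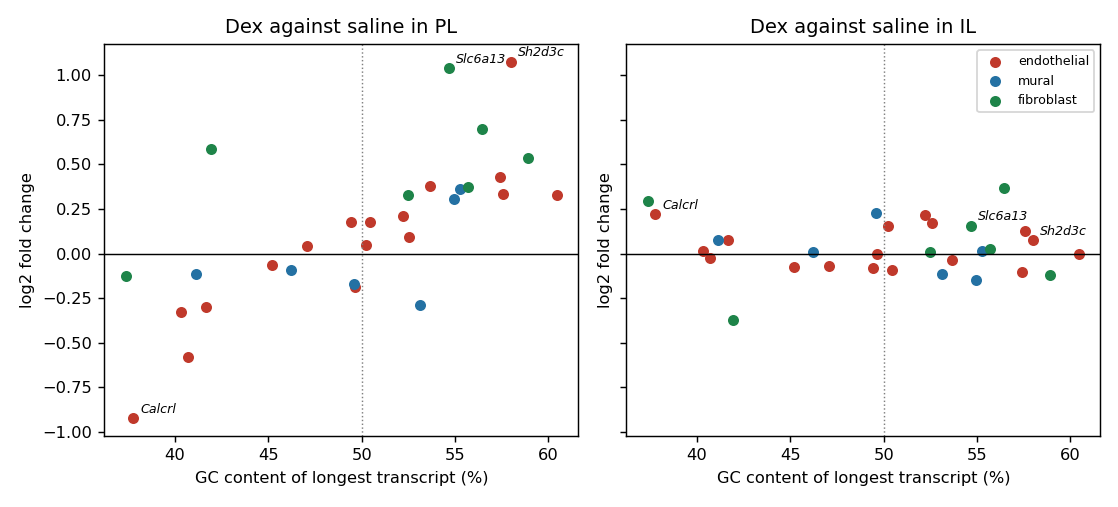
Log2 difference of Dex from saline against the GC content of the transcript for the 30 tested members, in PL and in IL. In PL 16 of the 17 members at or above 50% GC lie above 0 and 10 of the 13 below 50% do not; in IL no such split is seen.

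In IL no member differed between Dex and saline past the threshold. The main fit had no term for the sample number, so its spread in IL includes the differences between numbers described above. With edgeR 0 of 30 members were called, as were 0% of all genes, and 0 members had an unadjusted p under 0.05, where 1.06% of all genes did; DESeq2 called 0. The groups overlapped for all 30 members, where 7.78% of all genes had groups that did not overlap. The class medians were -0.0034 over endothelial, 0.01 over mural and 0.02 over fibroblast members. The smallest endothelial p belonged to the adhesion gene Cdh5, at 8.46, 9.20 and 8.45 CPM in IL saline and 13.2, 8.85 and 8.67 in IL Dex. IL Dex library 1 was the only Cdh5 value in IL Dex above the IL saline range. For Ptgds the difference was 0.37, with a 95% interval of -0.85 to 1.58, and -0.39 without IL Dex library 2.

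The difference between the Dex effects of PL and IL was tested as an interaction of region and drug. With edgeR 0 of 30 members were called, as were 0% of all genes, and 3 members had an unadjusted p under 0.05, where 6.73% of all genes did; DESeq2 called 0. Those were Calcrl, at -1.14 (95% interval -1.78 to -0.51), Sh2d3c, at 1.00 (0.41 to 1.60), and Pdgfrb, at 0.45 (0.04 to 0.87), each with an adjusted p of 0.716. Over the alternatives the adjusted p ran from 0.0852 to 1.00 for Calcrl and from 0.0952 to 1.00 for Sh2d3c. None of these differences between regions is past the threshold.

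PL against IL in saline mice asked whether the regions differ in vessel and meningeal genes. With edgeR 3 of 30 members were called, 2 higher in PL and 1 lower, where 18.7% of all genes were called, 9.97% higher and 8.7% lower. The libraries did not overlap for 9 members, 5 higher and 4 lower, where 40.3% of all genes did not, 20.1% higher and 20.2% lower. Slco1a4 was at 68.8, 71.8 and 48.2 CPM in PL saline and 46.1, 45.5 and 42.3 in IL saline, higher in PL by 0.50 on the log2 scale (SE 0.147, adjusted p 0.0232). Calcrl, with the values given above, was higher in PL by 0.70 (SE 0.206, adjusted p 0.0224). Pdgfrb was at 30.5, 27.3 and 26.2 CPM in IL saline and lower in PL by 0.55 (log2 difference -0.55, SE 0.139, adjusted p 0.00974). None of the 3 groups of values overlapped between the regions.

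These calls changed with the libraries included and with GC correction. With GC correction 0 members were called, where 3064 of 20015 genes (15.3%) still were. The corrected difference was 0.31 for Slco1a4 (adjusted p 0.0806), 0.47 for Calcrl (0.134) and -0.28 for Pdgfrb (0.157). Slco1a4 was not called without PL saline library 1 (adjusted p 0.088), PL saline library 2 (0.14) or any 1 of the IL saline libraries (0.0556, 0.0617 and 0.0841). Calcrl was not called without PL saline library 2 (0.109) or 3 (0.0615), nor without IL saline library 2 (0.0827) or 3 (0.122), and Pdgfrb not without IL saline library 1 (0.0507). Without 1 saline library, 8.99% to 15.2% of all genes were called, where 18.7% were with all 12 libraries. Leaving out any 1 library gave differences of 0.39 to 0.66 for Slco1a4, 0.56 to 0.88 for Calcrl and -0.59 to -0.48 for Pdgfrb. Rgs5 was at 123.1, 113.1 and 115.7 CPM in PL saline and 97.1, 84.7 and 93.3 in IL saline, higher in PL by 0.36 (adjusted p 0.068, and 0.0348 with the batch block). Slco1a4, Calcrl and Rgs5 hold 40.3%, 37.8% and 41.1% GC and were higher in PL, and Pdgfrb holds 54.9% and was lower. Over the tested members, 7 of 17 with at least 50% GC and 11 of 13 under 50% were higher in PL. With GC correction these were 9 of 17 and 12 of 13. The part of GC content in the regional differences was not tested.

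With library totals in place of TMM scaling the 3 members called were all lower in PL, Cldn5, Pdgfrb and Vtn, and the median of all genes shifted to -0.139. The endothelial median was 0.02 with TMM and -0.10 with library totals, so no direction is given for the class. With edgeR and TMM, 18.7% of all genes were called, 9.97% higher and 8.7% lower, and the counts of further genes stand beside that share. Their calls are given without GC correction. Among further genes, 3 of 29 endothelial genes were called, all higher in PL: Cd34, a sialomucin, by 1.19, the transferrin receptor gene Tfrc by 0.64 and the junction gene Tjp1 by 0.32. Of 19 further mural genes, Notch3, the receptor of arterial smooth muscle and pericytes, and Des, the desmin gene, were lower in PL, with log2 differences of -0.92 and -1.67. Of 25 further fibroblast and meningeal genes, 2 were higher in PL, Col12a1 by 1.32 and Cemip by 0.73, and 2 lower, Fbln1 and Bmp6 (-0.67 and -0.95). Arterial and venous genes gave 0 calls of 14 with edgeR, 1 of them with an unadjusted p under 0.05.

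In Dex mice 1 of 30 members was called between the regions with edgeR, where 7.34% of all genes were called, 3.8% as higher in PL. The libraries of 3 members did not overlap, 2 higher and 1 lower, where 21.6% of all genes did not, 10.8% in each direction. The called member was Sh2d3c, higher in PL by 0.77 (SE 0.201, adjusted p 0.0214). It kept the call with GC correction (0.87, adjusted p 0.00329), whereas it was not called without PL Dex library 1 (0.0764), IL Dex library 1 (0.061) or IL Dex library 2 (0.134). PL Dex enters this contrast and the contrast of Dex with saline in PL alike, so both rest on the same 3 PL Dex libraries. Flt1, a receptor for vascular endothelial growth factor, was at 58.6, 64.0 and 81.7 CPM in PL Dex and 57.7, 54.8 and 55.2 in IL Dex, a difference of 0.29 (adjusted p 0.21). The fibroblast members gave 0 calls of 7, with Col1a2 at 0.32 (adjusted p 0.403) and Col3a1 at 0.64 (0.465), and the lowest unadjusted p among them was 0.12. Of the 9 further endothelial, mural and fibroblast genes called in saline mice, Cd34 (1.14), Col12a1 (1.62) and Cemip (1.03) were also called as higher in PL here. The other 6, Tfrc, Tjp1, Notch3, Des, Fbln1 and Bmp6, were not called. In all, the contrast called 1 of 29 further endothelial genes and 0 of 19 further mural genes with edgeR, 1 mural gene having an unadjusted p under 0.05, and no further fibroblast gene was called as lower. Each region's libraries here differ from those of the saline contrast, but all 12 share the fit's estimate of spread.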

How the data were processed

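PolyA RNA of 12 samples in 4 groups of 3 was analysed. The values deposited by the authors are raw read counts, 1 whole number per gene and sample. Per the file headers, featureCounts 2.0.1 counted exons by gene identifier, paired-end and with no strand option, on GRCm38 release 98. HISAT2, SAMtools 1.8, Trim Galore and bcl2fastq are listed in the submitters' processing notes, which name mm39, whereas the table's coordinates are those of GRCm38. The 12 count columns that match no sample were not used, and 106 symbols shared by several identifiers were each kept for 1 identifier. The members and the 13 lists of 180 further genes were chosen with earlier results of these data known.

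edgeR 4.0.16 in R 4.3.3 fitted a quasi-likelihood model to all 12 libraries with 1 mean per group, TMM factors of 0.935 to 1.05 and 8 residual degrees of freedom, after filterByExpr. P-values are two-sided, adjusted by Benjamini-Hochberg over 20015 genes, and called at 0.05. Levels are in CPM, computed on TMM-scaled library sizes. The test of the batch number was fitted within each region, filtered anew, and was added after seeing the data. Values in every library are given for members past the threshold, the 2 smallest p per class and comparison and the highest level per length in each class; other members with values were chosen after their values were seen. Same-numbered libraries deviated together in IL (r 0.284 to 0.337) and less in PL (0.00858 to 0.108); the labels' batch number was taken as the pairing. Between PL and IL the correlation was -0.0933 to 0.191, and the labels do not say whether same-numbered PL and IL libraries share a mouse. Both fits were tested on simulated data. Alternatives were DESeq2 1.42.0, other scalings, no filter, a batch block, a GC spline and leaving out each library. Promoters are from RefSeq.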

Additional observations from a re-analysis of the deposited data

How the results depend on the processing

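For Dex against saline in PL the count of members called was 0, and it was 2 with DESeq2 (1.12% of all genes), 1 with no low-count filter (0.496%), 0 with GC correction (0%) and 0 to 2 when 1 library was left out, 2 being the count without PL Dex library 3 (7.07%). For PL against IL in saline mice the count was 3, and it was 3, all lower, with library totals (20.1% of all genes), 4 with no low-count filter (10.1%), 0 with GC correction (15.3%), 1 (Ly6c1) with GC correction and the batch block (3798 genes), and 1 to 4 when 1 library was left out. For PL against IL in Dex mice it was 1, and 0 to 1 on leaving out 1 library. For the batch number within PL it was 0, and 0 to 2 on leaving out 1 library, the 2 being Acta2 and Myh11 without PL Dex library 2 or 3; within IL it was 5, and 5 to 6. The cause was not tested. For Dex in IL and for the interaction the count was 0 under all 19 alternatives. The batch block gives PL and IL the same effect of each number, so no alternative fits the sample-number differences of IL apart from those of PL.

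With the batch number as a replicate block, the count was 1 (Sh2d3c) for Dex in PL (3 of all genes), 4 for PL against IL in saline mice, 1 in Dex mice, and 0 for Dex in IL and for the interaction.

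Over the alternatives the adjusted p ran from 0.00503 to 0.14 for Slco1a4, 0.0142 to 0.135 for Calcrl and 0.00331 to 0.157 for Pdgfrb between regions in saline mice, and from 0.000477 to 0.134 for Sh2d3c in Dex mice. The members past the threshold in these contrasts kept their direction. Among members not called, the difference for Dex in PL turned with GC correction, without and with the batch block, for Abcb1a (0.029 and 0.0327), Sox17 (-0.0227 and -0.0028) and Dcn (0.18 and 0.34), and with the block alone for Dcn (0.0382). Leaving out 1 library gave -0.17 to 0.0653 for Abcb1a, -0.14 to 0.64 for Sox17, -0.46 to 0.38 for Dcn, -0.71 to 0.69 for Myh11 and, for Dex in IL, -0.39 to 0.80 for Ptgds. Low counts limit Tagln, Igf2 and Lum.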
